A study of Mus musculus with 101 samples.

Results

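Yap1, Birc2, Birc3, Tmem123, Cfap300 and Cep126 are 6 neighbouring genes of mouse chromosome 9, taken here by symbol from 43513 gene symbols whose copy number was read by low-coverage whole-genome sequencing of 98 mouse mammary tumours and 3 spleens. The genes were chosen on measured values, because they lie in the stretch that most often carried high-level gain in these tumours, so their levels by genotype are given as a description with no test. The tumours came from 4 models: 24 KB1(L1363P)P tumours, which carry the L1363P variant of Brca1; 31 KB1P tumours, with loss of Brca1, of which 10 are titled KB1PM, a name the labels do not explain; 25 KB2P tumours, with loss of Brca2; and 18 KP tumours, with neither gene targeted. Trp53 loss is shared by all 4, and in this family of models the keratin 14 promoter drives the Cre recombinase, so that the alleles are deleted in epithelial cells. The 3 spleens, one each from KB1(L1363P)P, KB1P and KP mice, serve as background. The labels give each tumour a histology and an epithelial percentage. KB1(L1363P)P held 12 sarcomatoid tumours, 9 carcinosarcomas and 3 adenocarcinomas, KB1P held 1, 1 and 29 in that order, KB2P held 25 adenocarcinomas, and KP held 10, 2 and 6. The labels do not state the age of the mice or whether each tumour came from a separate animal, so p-values measure the spread between tumours.

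Yap1 encodes a transcriptional coactivator. When the Hippo kinases are inactive, the protein enters the nucleus, binds TEAD factors and raises genes of growth and survival; in the mammary gland it is known for its activity in basal and mesenchymal-like cells. Birc2 and Birc3 encode cIAP1 and cIAP2, ubiquitin ligases that bind TRAF2 and restrain cell death and non-canonical NF-kappaB signalling. Tmem123 encodes a mucin-like cell surface protein also called porimin, Cfap300 a protein needed to assemble the dynein arms of motile cilia, and Cep126 a protein of the centrosome and the base of the cilium. The stretch is a known site of focal amplification in mouse and human carcinomas.

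In the mm10 genome, to which the deposited symbols were matched through RefSeq (GRCm38.p6), the genes lie in the order Tmem123 (chromosome 9, 7764077 to 7794333), Birc2 (7818226 to 7837131), Birc3 (7847468 to 7873205), Yap1 (7931999 to 8004638), Cfap300 (8021672 to 8042875) and Cep126 (8076460 to 8134479), a span of 0.370 Mb. By the deposited segmentation, the amplified segment carries each gene with its own promoter. The RefSeq promoter windows of Yap1, Birc2 and Birc3, the coactivator and the 2 inhibitors of apoptosis, are shown as a description of their letters. Copy number was read in 20-kb bins and the 3 genes had the same segment value in every sample, so their starts were not measured apart. Sequencing depth was corrected for base composition, but any effect of base composition on these values was not tested. Each window runs from 250 bases before to 50 bases after the start, on the minus strand of GRCm38.p6. Capitals mark the letters GGAATG or their reverse complement, the core of the TEAD binding motif.
Yap1 promoter, chr9:8004547-8004846: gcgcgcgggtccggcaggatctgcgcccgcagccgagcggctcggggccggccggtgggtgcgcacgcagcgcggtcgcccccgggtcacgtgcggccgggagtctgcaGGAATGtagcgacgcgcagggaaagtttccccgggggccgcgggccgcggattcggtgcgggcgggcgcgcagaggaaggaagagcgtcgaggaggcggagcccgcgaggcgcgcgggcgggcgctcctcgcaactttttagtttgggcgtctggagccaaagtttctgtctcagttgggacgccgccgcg
Birc2 promoter, chr9:7837008-7837307: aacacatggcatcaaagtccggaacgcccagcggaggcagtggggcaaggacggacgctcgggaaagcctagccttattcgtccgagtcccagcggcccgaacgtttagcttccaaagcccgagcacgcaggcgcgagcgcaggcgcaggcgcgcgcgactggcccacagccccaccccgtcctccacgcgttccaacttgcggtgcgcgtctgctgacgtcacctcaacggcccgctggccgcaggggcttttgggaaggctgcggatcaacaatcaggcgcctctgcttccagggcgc
Birc3 promoter, chr9:7873121-7873420: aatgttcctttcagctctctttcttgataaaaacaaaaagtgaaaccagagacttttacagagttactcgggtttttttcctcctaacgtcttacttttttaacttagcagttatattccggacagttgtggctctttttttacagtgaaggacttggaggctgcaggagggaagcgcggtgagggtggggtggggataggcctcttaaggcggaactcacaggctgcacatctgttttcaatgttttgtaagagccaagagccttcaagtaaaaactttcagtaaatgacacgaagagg

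The Yap1 window was 74% G and C with 49 CpG dinucleotides, the Birc2 window 67% with 34, and the Birc3 window 43% with 7, against a median of 52.7% G and C over 32851 promoter windows of the mouse. The TEAD core was present once in the Yap1 window, beginning at its base 110, and in neither of the other 2 windows printed. On either strand it was found in 14.7% of all windows, so its presence is a description of the letters and not evidence of a site. One microRNA gene, Mir5618, lies within Tmem123 (7784390 to 7784440, plus strand) and shared every copy number value of the 6 genes. Its 2 mature forms are printed with the seed, bases 2 to 8, in capitals; each seed belonged to 1 of 1738 mature mouse microRNAs.
mmu-miR-5618-5p: uACCCUUUacaccguguagu
mmu-miR-5618-3p: cUAUACCAuguaaagggu

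The 6 genes had identical segment values and identical copy scores in all 101 samples. A segment value is the deposited log2 level of the unbroken stretch to which a gene was assigned, with 0 for the normal 2 copies, and the copy score is the deposited whole number, 2 where neutral. The deposited segmentation placed no breakpoint between any of the 6. Values given for Yap1 therefore hold for Birc2, Birc3, Tmem123, Cfap300 and Cep126, and the 6 genes are 1 measurement and not 6. A further 4 placed genes shared all tumour values, Mir5618 and the pseudogenes Gm10709, Gm19324 and Gm7495, which makes 10 genes over 0.429 Mb (7751672 to 8181112). These 10 were also the full set of placed genes at high-level gain in every amplified tumour. Amplified tumours were taken by a Yap1 value of 1 or more, so this overlap had to hold Yap1 and the genes sharing its values. For tumours so taken, the 6 are the smallest region of overlap together with Mir5618 and 3 pseudogenes. Another 2 symbols with no position also shared all tumour values.

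High-level gain, a segment value of 1 or more, was present in 26 of 98 tumours, which are called amplified below. Only 28 of 43513 symbols, or 0.0643%, reached 26 tumours, 24 of them placed on chromosome 9 around Yap1 and 4 with no position in the annotation used. The highest count on another chromosome was 16. This count is what chose the genes. By genotype it was 12 of 24 in KB1(L1363P)P, 2 of 31 in KB1P, 1 of 25 in KB2P and 11 of 18 in KP. In KB1(L1363P)P the Yap1 segment value had a lowest, median and highest value of -0.36, 1.69 and 5.20, with a mean of 2.18 ± 2.31 (SD, n = 24). In KB1P the 3 values were -0.46, 0.06 and 4.49, with a mean of 0.34 ± 0.94 (SD, n = 31). In KB2P they were -0.08, 0.03 and 1.47, with a mean of 0.21 ± 0.36 (SD, n = 25). In KP they were -0.83, 4.04 and 5.11, with a mean of 2.65 ± 2.29 (SD, n = 18). The spleens lay between -0.0014 and 0.0013. KP and KB1(L1363P)P overlapped over nearly their whole ranges, and the highest KB1P value lay far above the highest of KB2P. In KB1(L1363P)P and KP the values formed a low group and a separate high group.

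**Figure D1:**
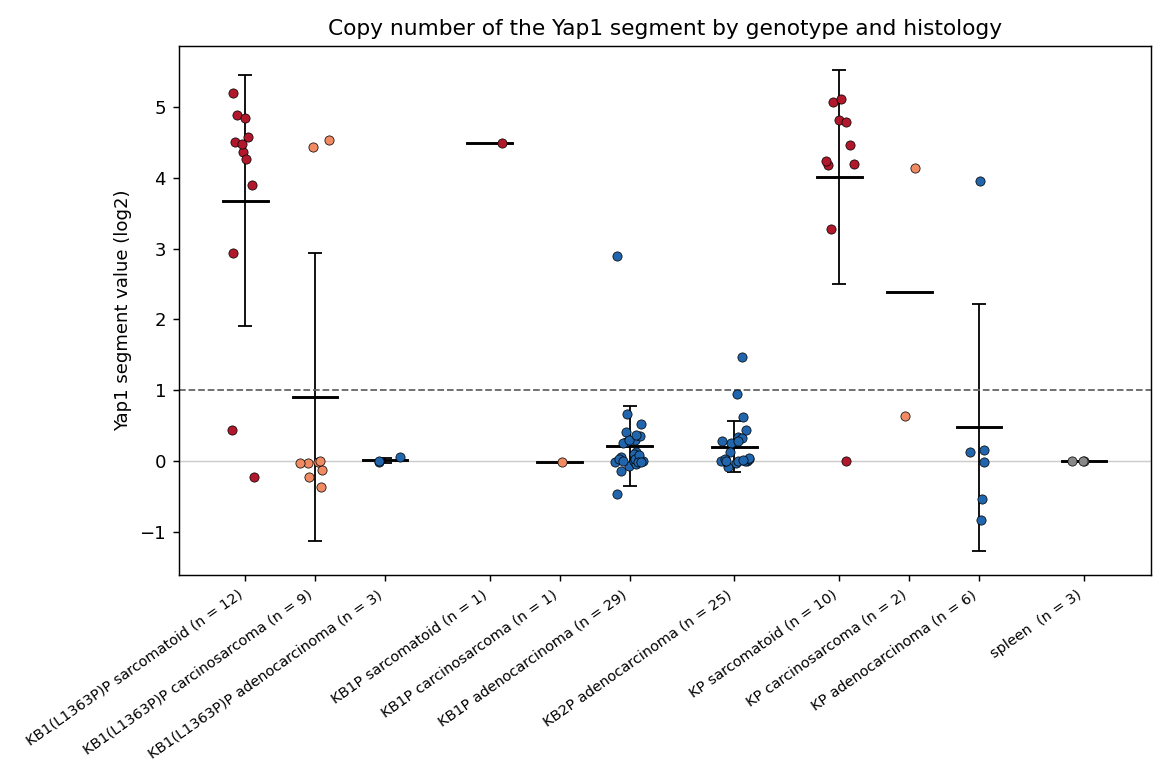
The Yap1 segment value (log2) of each tumour and spleen is drawn by genotype and histology, with the mean as a bar, the SD as an error bar where n is 3 or more, and a dashed line at 1, the limit of high-level gain. Red points are sarcomatoid tumours, orange carcinosarcomas, blue adenocarcinomas and grey spleens; 10 of 12 sarcomatoid KB1(L1363P)P tumours and 9 of 10 sarcomatoid KP tumours lie above the line.

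Where the locus was amplified, it was amplified strongly. The 26 amplified tumours averaged 4.23 ± 0.81 (SD, n = 26), with a lowest, median and highest value of 1.47, 4.44 and 5.20. Of them, 23 lay at 3 or more and 20 at 4 or more. Copy scores ran between 6 and 73 with a median of 43.5; since tumour cell content was not given, a score is a mean over tumour and other cells. The 12 amplified KB1(L1363P)P tumours averaged 4.41 ± 0.57 (SD) with copy scores of 15 to 73, and the 11 amplified KP tumours 4.38 ± 0.54 (SD) with copy scores of 19 to 69. The 2 models thus had amplitudes that differed by less than the spread between tumours. The highest Yap1 value was that of KB1(L1363P)P replicate 9, a sarcomatoid tumour at 5.20, followed by the sarcomatoid KP replicates 16 and 10 at 5.11 and 5.07. In KB1P the 2 amplified tumours were replicate 9, at 4.49 and the only sarcomatoid tumour of the model, and replicate 24, an adenocarcinoma at 2.89 that is titled KB1PM. The single KB2P tumour past the limit, replicate 7, had 1.47 and a copy score of 6, and the tumour just below the limit, KB2P replicate 9, had 0.95 and a copy score of 4.

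Tumours with Yap1 amplification, most of them sarcomatoid, were otherwise mostly quiet. The share of all genes with a copy score other than 2 had a median of 0.147% over the 26 amplified tumours, with a lowest of 0.0758% and a highest of 49.0%. In the 12 amplified KB1(L1363P)P tumours the median was 0.118% and the highest 10.1%, and in the 11 amplified KP tumours 0.184% and 14.5%. The amplified adenocarcinomas of KB1P and KB2P, replicates 24 and 7, had 41.3% and 49.0% of genes altered. The amplified adenocarcinoma of KP, replicate 5, had 4.33%. The sarcomatoid tumours without amplification had 0.722% (KP replicate 14), 1.02% (KB1(L1363P)P replicate 6) and 6.87% (KB1(L1363P)P replicate 1). A low share was thus not particular to amplified tumours, and whether it goes with the gain or with histology was not tested. The median segment value of chromosome 9 beyond 20 Mb ran between -0.83 and 0.01 in the amplified tumours, so that Yap1 stood 1.96 to 5.43 above that median, with a median gap of 4.59.

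By histology, the gain of the 6 genes was concentrated in sarcomatoid tumours, which have no epithelial part. High-level gain was present in 20 of 23 sarcomatoid tumours, 3 of 12 carcinosarcomas and 3 of 63 adenocarcinomas. Histology was not part of the count that chose the genes, and it was tested within a genotype. But 20 of the 26 amplified tumours were sarcomatoid, and earlier results of these data were known when the genes were chosen. The tests use the values that gave the count, so they are not independent of that choice. In KB1(L1363P)P the 12 sarcomatoid tumours had a lowest, median and highest Yap1 segment value of -0.23, 4.42 and 5.20, against -0.36, -0.03 and 4.53 in the 9 carcinosarcomas; the 3 adenocarcinomas had -0.02, 0.0018 and 0.05. All but 2 of the sarcomatoid tumours lay at 2.95 or more and all but 2 of the carcinosarcomas at or below -0.0013, so the groups overlapped through 4 tumours. The sarcomatoid mean was 3.68 ± 1.77 (SD, n = 12) and the carcinosarcoma mean 0.91 ± 2.03 (SD, n = 9). The difference was 2.77 with an SE of 0.72 in limma, with a Benjamini-Hochberg adjusted p of 0.0296 over all 43513 genes. In that comparison 5.21% of all genes were called higher, most of them not near Yap1: 861 of the 2268 lay on chromosome 12 and 10 on chromosome 9. An exact two-sided permutation test of Yap1 alone gave p = 0.00604, unchanged by adjustment over the 3 histology comparisons made.

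Against carcinosarcomas and adenocarcinomas together, the sarcomatoid KB1(L1363P)P tumours were higher at Yap1 by 3.00 with an SE of 0.67 (limma adjusted p = 0.00936), with means of 3.68 ± 1.77 and 0.68 ± 1.78 (SD, n = 12 each). There 2.66% of genes were called higher, 24 of the 1158 on chromosome 9, and 851 on chromosome 12. A permutation test with 100000 resamples gave p = 0.00138 and an adjusted p of 0.00337. All 12 sarcomatoid tumours belonged to library series 5289, which also held 8 of the other 12. Within that series alone the difference was 2.22 against 6 carcinosarcomas (limma adjusted p = 0.290; exact permutation p = 0.0496) and 2.58 against the 8 others (limma adjusted p = 0.121; exact permutation p = 0.0127). The difference from carcinosarcomas also lost its adjusted p under 0.05 when any 1 of replicates 3, 9, 10, 15 and 22 was left out, with differences of 2.61 to 3.23 over all tumours left out in turn and adjusted p up to 0.0869.

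In KP the 10 sarcomatoid tumours had a lowest, median and highest Yap1 value of 0.0027, 4.35 and 5.11. The 6 adenocarcinomas had -0.83, -0.53, -0.01, 0.12, 0.16 and 3.95. The sarcomatoid tumours were high with 1 exception, and the adenocarcinomas lay at or below 0.16 with 1 exception. The means were 4.01 ± 1.51 (SD, n = 10) and 0.48 ± 1.75 (SD, n = 6), a difference of 3.54 with an SE of 0.77 and a limma adjusted p of 0.0268; 2.99% of genes were called higher, 27 of the 1300 on chromosome 9 and 935 on chromosome 12. The exact two-sided permutation test gave p = 0.00225 and an adjusted p of 0.00337. The limma call was lost, with the same direction, on log2 ratios (adjusted p = 0.0707), after centring on the autosomal median (adjusted p = 0.0963), and when any 1 of KP replicates 1, 2, 4, 7, 8 and 13 was left out (adjusted p up to 0.0923). All 10 sarcomatoid KP tumours formed library series 5750, which held no other tumour, so library series and histology cannot be told apart in KP. The 2 KP carcinosarcomas had 0.64 and 4.14.

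The total of amplified tumours chose the genes. Its split by histology was not part of that choice, though sarcomatoid tumours gave most of the total and the tests below use the same counts. Counted as amplified or not, Yap1 was at high-level gain in 10 of 12 sarcomatoid and 2 of 12 other KB1(L1363P)P tumours, which is 83.3% and 16.7% (two-sided Fisher's exact test, p = 0.00333, adjusted p = 0.00666 over 2 genotypes). In KP it was 9 of 10 sarcomatoid and 2 of 8 other tumours, 90.0% and 25.0% (Fisher's exact test, p = 0.0128, adjusted p = 0.0128). Within library series 5289 the KB1(L1363P)P counts were 10 of 12 and 2 of 8, with an adjusted Fisher's exact p of 0.0194. The interaction took all other histologies together as reference in both models, and the 8 such KP tumours had a mean of 0.96. The sarcomatoid difference in KB1(L1363P)P minus that in KP was -0.06 with an SE of 1.03 (limma adjusted p = 0.976 for the interaction). Its 95% confidence interval ran from -2.14 to 2.02.

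The 3 sarcomatoid tumours without high-level gain differed from each other. KB1(L1363P)P replicate 6 had a Yap1 value of -0.23 and a Met value of 3.82, Met being the receptor tyrosine kinase gene of chromosome 6. KB1(L1363P)P replicate 1 had 0.44 at Yap1, the same value as all of chromosome 9. KP replicate 14 had 0.0027 at Yap1 and high-level gain of Met. Over all 98 tumours, 24 had high-level gain of Yap1 alone, 10 of Met alone, 2 of both and 62 of neither. Of the 9 carcinosarcomas of KB1(L1363P)P, 2 had Yap1 alone, 5 Met alone and 2 neither.

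By epithelial percentage, high-level gain was present in 20 of 23 tumours at 0% epithelium, 2 of 3 between 2% and 40%, 1 of 9 between 75% and 98%, and 3 of 63 at 100%. In the KB1(L1363P)P carcinosarcomas, replicates 11 and 2, with 2% and 5% epithelium, had Yap1 values of 4.53 and 4.43. The others, with 40% to 98%, lay between -0.36 and -0.0013. The 9 tumours thus fell into 2 separate clusters, and no correlation over all 9 is given. Within the 7 tumours below high-level gain, Pearson's r between percentage and Yap1 value was -0.31 (exact permutation p = 0.508) and Spearman's rho -0.20 (exact permutation p = 0.667), with an adjusted p of 0.667 over both. Without the 2 tumours farthest from the median percentage, r was -0.04. These 7 were taken by their Yap1 value, so this r does not describe the relation over all carcinosarcomas. In KP, the carcinosarcoma replicate 3, with 90% epithelium, had a Yap1 value of 4.14.

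**Figure D2:**
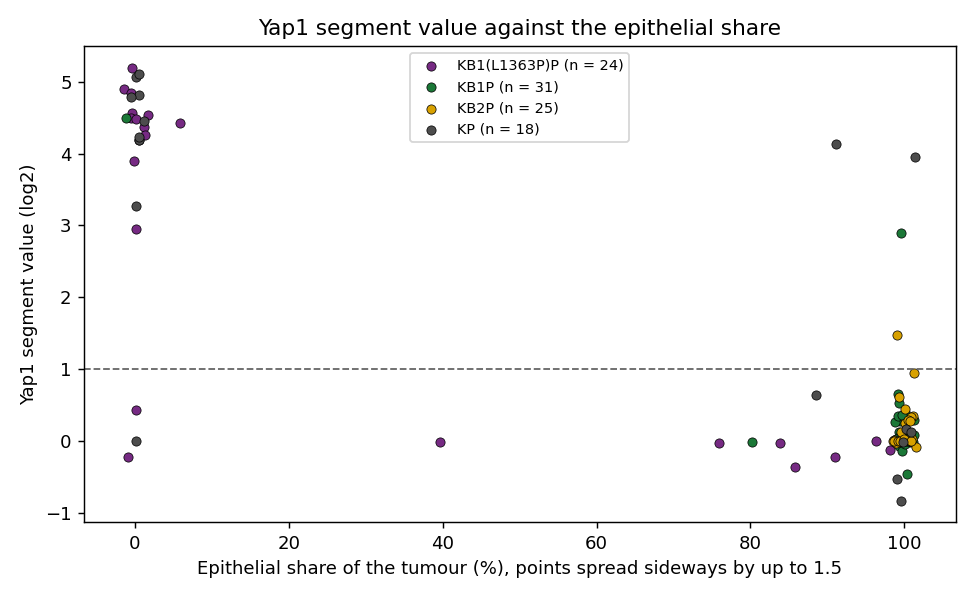
The Yap1 segment value (log2) of each tumour is drawn against its labelled epithelial percentage, coloured by genotype, with a dashed line at 1. Of 23 tumours at 0%, 20 lie above the line, and of 63 tumours at 100%, 3 do.

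In 2 pairs of KB1(L1363P)P tumours, the tumours share a title number and differ in histology; the labels do not say that they come from 1 mouse. In the pair numbered 7, the sarcomatoid replicate 18 had 4.48 at Yap1 and the adenocarcinoma replicate 19 had -0.02. In the pair numbered 26, the sarcomatoid replicate 6 had -0.23 and the adenocarcinoma replicate 7 had 0.05. The carcinosarcoma pair numbered 54, replicates 23 and 24, had -0.23 and -0.03 at Yap1 and 5.32 and 5.41 at Met.

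Low-level change of the 6 genes was counted apart from high-level gain. Beyond the 26 amplified tumours, 12 had a low-level gain, that is a copy score above 2 with a segment value below 1, and 3 had a loss. Since the copy score equals the segment level rounded to whole copies in all 606 values of these genes, a gain call begins at 0.32 and a loss call at -0.42. Another 11 tumours were shifted up without a call (0.12 to 0.30) and 5 shifted down (-0.36 to -0.13), and 41 lay between -0.08 and 0.10. Low-level gain was present in 1 KB1(L1363P)P, 5 KB1P, 5 KB2P and 1 KP tumour, and loss in 1 KB1P and 2 KP tumours. Of the 5 KB1P low-level gains, 4 were in the 10 tumours titled KB1PM and 1 in the other 21. Together 38 of 98 tumours carried a gain call and 3 a loss call.

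Most low-level gains of Yap1 were long. The 5 KB1P gains had Yap1 values of 0.35 to 0.66 and runs of gain calls of 18.2 to 42.3 Mb, each reaching far beyond the amplified runs along chromosome 9. The 5 KB2P gains had 0.33 to 0.95 and runs of 3.76 to 46.2 Mb, of which replicates 8 and 25 had the shortest, 3.76 and 8.14 Mb. KB1(L1363P)P replicate 1, at 0.44, gained the whole chromosome. KP replicate 6, a carcinosarcoma, had the shortest run: its Yap1 value of 0.64 covered 2.51 Mb, between Dync2h1 and Gm47333, while the chromosome beyond 20 Mb lay at -0.39. Yap1 stood at least 0.4 above the chromosome's median beyond 20 Mb in 8 of the 12 low-level gains and within 0.1 of it in 3. The losses had Yap1 values of -0.46 (KB1P replicate 7), -0.53 (KP replicate 1, the whole chromosome) and -0.83 (KP replicate 7); in each the median of chromosome 9 beyond 20 Mb lay within 0.03 of Yap1. The unbroken run of loss calls around Yap1 was 8.14 Mb long in KB1P replicate 7 and 11.0 Mb in KP replicate 7. Of the shifts without a call, 9 of 11 upward and 4 of 5 downward were within 0.1 of that median.

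The amplified runs were short and, by the deposited segmentation, always held all 6 genes. Measured as the unbroken run of placed genes at 1 or more, the run had a median length of 4.31 Mb over the 26 tumours, with a shortest of 1.22 Mb and a longest of 14.4 Mb. By model the median was 4.31 Mb in KB1(L1363P)P (n = 12), 4.86 Mb in KB1P (n = 2) and 3.45 Mb in KP (n = 11), and the KB2P tumour had 14.4 Mb. The shortest runs were those of KB1(L1363P)P replicate 20, which covered 13 placed genes between Gm10709 and Pgr, and KP replicate 12, which covered 1.25 Mb between Dync2h1 and Gm7495. Yap1 was at the highest level of its run in 24 of 26 tumours, in KB1P replicate 9 0.46 below the top and in KB2P replicate 7 0.40 below it. In 8 tumours the whole run had 1 segment value. In another 8, further genes of chromosome 9 outside the run also reached 1.

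**Figure D3:**
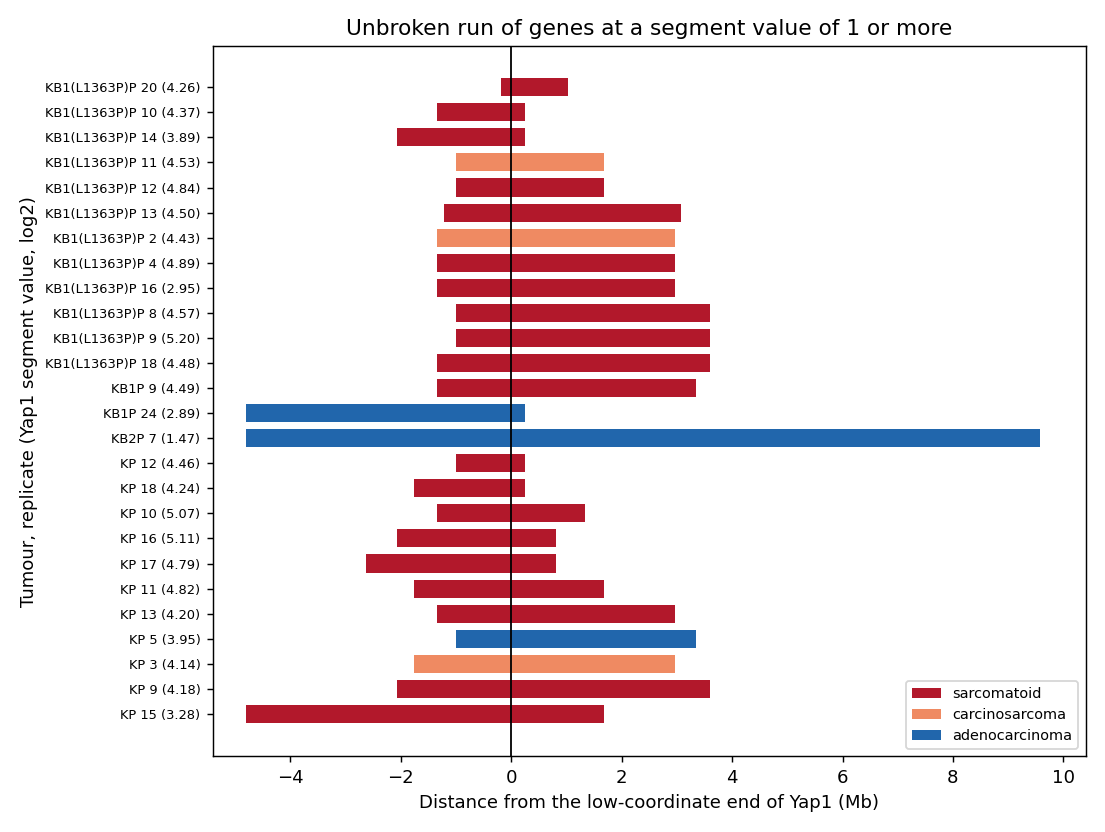
Each bar is the unbroken run of placed chromosome 9 genes at a segment value of 1 or more in 1 of the 26 amplified tumours, drawn by distance in Mb from the low-coordinate end of Yap1 and coloured by histology, with the Yap1 segment value (log2) beside the replicate number. All bars cross Yap1; the shortest, KB1(L1363P)P replicate 20, is 1.22 Mb long and the longest, KB2P replicate 7, is 14.4 Mb.

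The edge of the shared region was set by 1 tumour on one side and by 5 on the other. On the side of the matrix metalloproteinase genes, Cbx3-ps8 is the placed gene next to Gm10709, 26.9 kb away, and was at high-level gain in 25 of the 26 amplified tumours. The exception was KB1(L1363P)P replicate 20, which had 4.26 at Yap1 and 0.43 at Cbx3-ps8 and at Mmp7, the first of the metalloproteinases. Mmp7 also reached 26 tumours, because KB1P replicate 26 had 1.13 there and 0.40 at Yap1. On the other side, Trpc6, a calcium channel gene 363 kb beyond Gm19324, was at high-level gain in 21 of 26 and Pgr, the progesterone receptor gene, in 19 of 26. The 5 tumours whose run ended before Trpc6 were KB1(L1363P)P replicates 10 and 14, KB1P replicate 24 and KP replicates 12 and 18. Their Trpc6 values were -0.16, -0.22, -0.36, 0.59 and -0.20 in that order, against 4.37, 3.89, 2.89, 4.46 and 4.24 at Yap1. The runs began at Gm21089 in 8 tumours and at Dync2h1 in 6, and 3 reached the first placed gene of the chromosome.

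**Figure D4:**
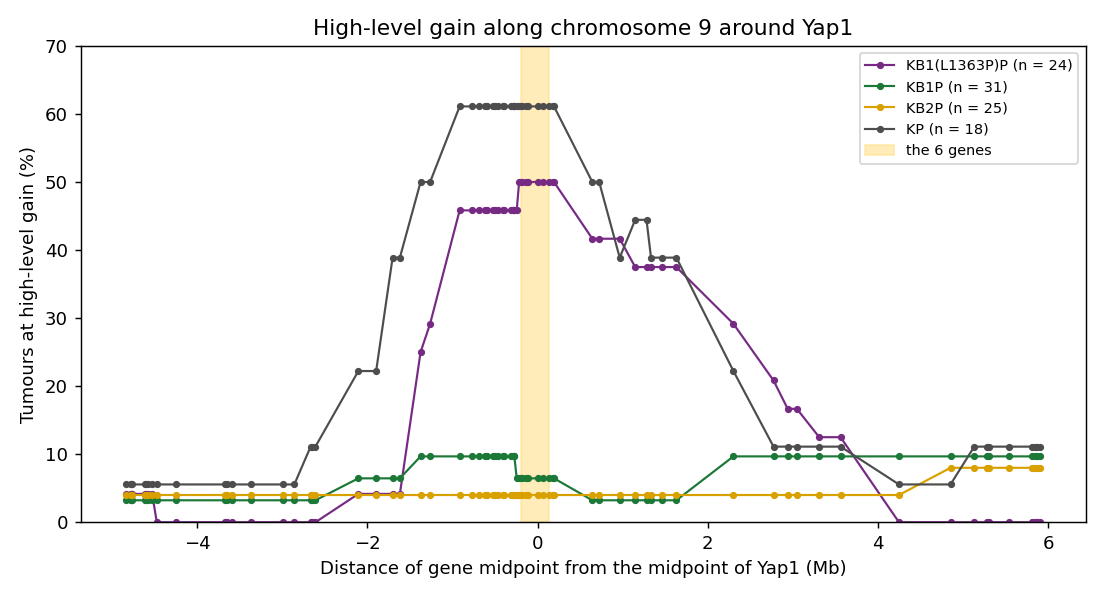
The share of tumours at high-level gain (%) is drawn for each placed gene within 6 Mb of Yap1, by genotype; the yellow band spans the 6 genes. At the band KB1(L1363P)P reaches 50.0%, KB1P 6.45%, KB2P 4.00% and KP 61.1%. In KB1(L1363P)P this is 12 tumours at the band, against 11 at Cbx3-ps8 and 10 at Trpc6. On the side of Cbx3-ps8, KP stays at 11 tumours as far as Dync2h1, and KB1P has 3 at Mmp7 against 2 at the band.

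Although the segment values were equal, each gene also has its own deposited log2 ratio, read from the 20-kb bins that cover it. In the amplified tumours the ratio lay slightly above the segment value for Birc2 (0.06 ± 0.09), Birc3 (0.09 ± 0.09), Yap1 (0.08 ± 0.10), Cfap300 (0.10 ± 0.11) and Cep126 (0.07 ± 0.12), and slightly below it for Tmem123 (-0.02 ± 0.08; SD, n = 26 each). Cfap300 had the highest of the 6 ratios in 16 of 26 tumours and Tmem123 the lowest in 20. The range over the 6 genes within a tumour had a median of 0.12 in amplified tumours, 0.21 in the other 72 and 0.31 in the 3 spleens. The median range was thus not larger than in samples without amplification. A range also holds the measurement noise of each ratio, so it cannot show that the 6 genes were amplified equally. Tmem123 was also the lowest on average in the unamplified tumours (-0.04 ± 0.12, n = 72) and in the spleens (-0.10 ± 0.22, n = 3). The largest range, 0.74, was that of KB1(L1363P)P replicate 20, which had a log2 ratio of 3.96 at Tmem123 and 4.66 to 4.70 at the other 5 genes. Whether a break lay within or beside Tmem123 in that tumour was not tested.

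**Figure D5:**
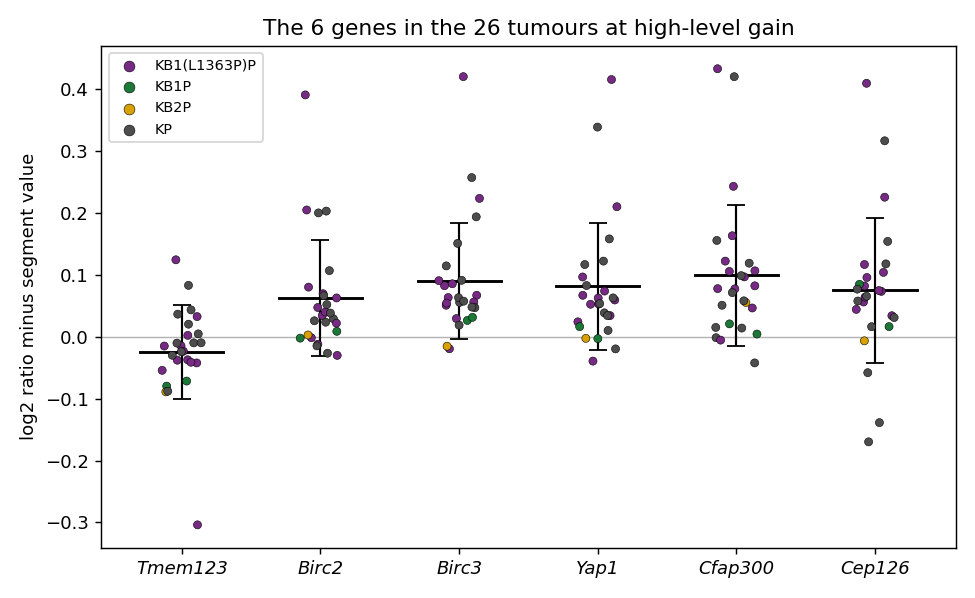
For each of the 6 genes in chromosome order, the deposited log2 ratio minus the segment value is drawn for the 26 amplified tumours, coloured by genotype, with mean and SD. The means lie between -0.02 for Tmem123 and 0.10 for Cfap300.

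The genes whose copy number was most like that of Yap1 were its neighbours. Over 98 tumours Pearson's r with Yap1 was 0.95 or more for an unbroken run of 24 placed genes between Dcun1d5 and Gm7495 (1.00 Mb), 0.94 for Dync2h1 and 0.87 for Trpc6. Outside chromosome 9 the highest r was 0.50, shared by Chtf8, Cog8, Cyb5b, Derpc and Gm16209 of chromosome 8, none of which reached high-level gain in any tumour. Of 21 listed neighbours that were measured, 17 were at high-level gain in 5 or more tumours, against 3.25% of all genes; Dync2h1, Dcun1d5 and all 10 listed metalloproteinase genes, such as Mmp7 and Mmp13, had 26 each.

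Other genes of the pathways of Yap1 and of Birc2 and Birc3 reached high-level gain in 8 tumours at most. The median measured gene had 10 gain and 10 loss calls in the Hippo list, 10 and 8 in the inhibitor of apoptosis list, and 6 and 16 in the cilium list, against 9 and 11 over all genes. Of 25 measured Hippo pathway genes, 10 were at high-level gain in at least 1 tumour, against 34.1% of all genes, and 1 in at least 5. That gene was Amotl1, a binding partner of Yap1 that also lies on chromosome 9, with 7 tumours, of which 3 were Yap1 amplified. Ccn2, a target gene of Yap1, had 4 such tumours, the kinase gene Lats1 had 3, and Stk3 and Tead4, the genes of a Hippo kinase and a TEAD factor, had 2 each. Wwtr1, the paralogue of Yap1, had none, with 1 gain call and 21 loss calls. By calls, Sav1, the scaffold of the Hippo kinases, had 4 gains and 42 losses, Ccn2 24 gains and 10 losses, and Tead4 32 gains and 1 loss. Lats2, a kinase gene, had 7 gains and 25 losses, and Fat1, an atypical cadherin gene, 8 gains and 24 losses. Vgll4, a competitor of Yap1 for TEAD, had 28 gains and 4 losses. How far such calls reached along each chromosome was not examined. Of 15 measured genes of the inhibitor of apoptosis family and its partners, 5 reached high-level gain in any tumour. Casp8, the initiator caspase of death receptors, had 8 tumours, Birc7 had 3, Birc5 had 2 and Diablo had 1. None of these tumours were Yap1 amplified, but the share over all genes was not counted. The amplified tumours had few altered genes of any kind (median 0.147%), so no exclusion can be read from this. By calls, Birc7 had 30 gains, Birc5 29 gains and 2 losses, and Naip1 and Naip2 8 gains and 25 losses each. Of 11 measured cilium genes related to Cfap300 and Cep126, Dync2h1, the neighbouring gene of a transport dynein, had 26 tumours and no other more than 1: Cep164, Dnaaf5, Ift88 and Lrrc6 had 1 each. Dnaaf1 had 3 gain and 34 loss calls, Cep290 3 gain and 31 loss calls, and Dnaaf5 31 gain and 2 loss calls.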

How the data were processed

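Genomic DNA was sequenced at low coverage and reads were counted in 20-kb bins corrected for GC content and mappability, per the labels' protocols. Those protocols name hg19, whereas the submitters' processing notes list mm10, BWA 0.7.17, SAMtools 1.10, cutadapt 2.5 and Picard; the placement below used mm10 names. The deposited files held log2 ratios, log2 segment values and a whole-number copy score per gene symbol; all were made by the authors, and neither the segmentation tool nor the read depth is stated in these sources. Gene positions came from RefSeq GRCm38.p6, which placed 32661 of 43513 symbols.

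The 6 genes and all gene lists were chosen with earlier results of these data known. Segment values of 1 or more were called high-level gain. Histology was compared within a genotype with limma 3.58.1 (R 4.3.3) on segment values over all 43513 symbols with Benjamini-Hochberg adjustment at 0.05; the fit was tested on simulated data. Yap1 alone was tested with permutation tests (exact where a group held fewer than 10 tumours, otherwise 100000 resamples, SciPy 1.17.1) and two-sided Fisher's exact tests. A correlation with epithelial percentage was planned over 9 tumours and was limited to 7 after their values were seen to form 2 clusters. Named genes were the 6 members, the up to 4 genes of each list with the most tumours at high-level gain and the up to 4 with the most calls, the placed genes next to the members and at the edge of the shared region, and the 5 genes off chromosome 9 with the highest r; Wwtr1 was added after its values were seen. Tied genes were all named or counted, except 1 gene that is not reported here. Alternatives were log2 ratios, centring on the autosomal median, all 98 tumours in 1 fit, values limited to 2, autosomal genes, library series 5289, other thresholds, other edges, each tumour left out and, added after seeing the data, the title number as a random block. KB2P replicates 10 and 12 had near-identical profiles (r = 0.985 over autosomal segment values); both had a Yap1 value near 0 and they enter no comparison of histology.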

Additional observations from a re-analysis of the deposited data

Results flagged for a closer look

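In 2 groups of tumours, of 3 examined, a single tumour stood apart from the others at Yap1. The limit used is passed by chance in about 1 in 20 groups where values form a single normal distribution. The KP values formed a low and a high group, so that rate does not hold here. Among the 10 sarcomatoid KP tumours, replicate 14 had a Yap1 segment value of 0.0027, against 3.28 for the next lowest, a gap of 0.641 of the range. Among the 6 KP adenocarcinomas, replicate 5 had 3.95, against 0.16 for the next highest, a gap of 0.793 of the range; its run at high-level gain was 4.35 Mb long, and the other 5 tumours lay between -0.83 and 0.16.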

How the results depend on the processing

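Replicate numbers only name tumours in accession order. With the title number as a random replicate block, chosen after seeing the data (24 KB1(L1363P)P tumours with 3 shared numbers, not said to mark 1 mouse), the sarcomatoid difference was 2.75 against carcinosarcomas (limma adjusted p = 0.0359) and 2.97 against the other histologies (limma adjusted p = 0.00956); no call changed. No paired analysis was possible in KP because no title number was shared by its tumours of different histology. The sarcomatoid difference at Yap1 kept its direction in all settings run. Within library series 5289 it was 2.22 against carcinosarcomas and 2.58 against the other histologies of KB1(L1363P)P, both without the limma call (adjusted p = 0.290 and 0.121). In KP the limma call was lost on log2 ratios (3.61, adjusted p = 0.0707) and after centring on the autosomal median (3.50, adjusted p = 0.0963). With each tumour left out in turn the differences were 2.61 to 3.23 (call lost in 5 of 21 fits), 2.86 to 3.35 (0 of 24) and 3.28 to 4.23 (6 of 16), and r with epithelial percentage was -0.48 to -0.04 without a call. The Fisher results kept their call in all settings. Their counts were the same at limits of 1, 1.5 and 2 and on log2 ratios, so those settings were no separate check. In KP the adjusted Fisher's exact p was 0.0430 at a limit of 0.5 and with any gain call. High-level gain counts in KB1(L1363P)P and KP stayed within 1.5 times. In KB1P the 2 tumours became 4 at a limit of 0.5, 7 with any gain call and 1 without the tumours titled KB1PM and replicate 8; in KB2P the 1 tumour became 3 at a limit of 0.5, 6 with any gain call, and 0 at a limit of 1.5 or 2. The median run was 4.33 Mb with an edge at 0.5 and 3.42 Mb with an edge at 0.5 times the Yap1 value. The cause of these changes was not tested. Edges are known only to the nearest placed gene, and read depth is unknown.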
